A study of Mus musculus with 24 samples.

Results

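The genes described here are the translation initiation and elongation factors of the mouse, the proteins that bring ribosomes to mRNA, find the start codon and move the ribosome along the coding sequence. They were chosen by name alone: 58 gene symbols in the deposited table began with Eif or Eef and a digit, leaving out the eIF2 kinases and Eef2k, and the 47 of these with a value above 0 in all 24 libraries were kept, out of 5035 genes that had such values. The other 11 symbols (Eef1a2, Eef1e1, Eif1ad, Eif2b2, Eif2s3y, Eif3j2, Eif4e1b, Eif4e3, Eif4ebp2, Eif4ebp3 and Eif5a2) had values in 0 to 23 libraries and were not tested. By role, the 47 factors were 11 start codon and eIF2 factors, 4 eIF2B subunits, 13 eIF3 subunits, 10 members of the eIF4 group, 2 eIF4E-binding proteins, eIF5A and eIF6, and 5 elongation factors.

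Ribosome profiling, which sequences the stretches of mRNA that ribosomes protect (RPF), and RNA sequencing were done on the same material of C57BL/6 mice, with 2 libraries for each assay in each of 6 groups. The cultured groups were brown and white cells at day 5 of adipogenesis and the same lineages as preadipocytes at day 0. They were primary stromal vascular fraction cells of interscapular brown fat or subcutaneous white fat from mice of 2 to 3 weeks, brought to confluence and then induced with insulin, dexamethasone, 3-isobutyl-methylxanthine and rosiglitazone. The tissue groups were interscapular brown fat (BAT) and epididymal white fat (eWAT) of male mice at 6 weeks, with tissue of 3 mice pooled for each library, so white cultures and eWAT came from different depots. The labels name no genetic change in any group. The labels do not say whether the duplicate cultures of a group were separate, and p-values therefore measure only the spread between these libraries. Values are RPKM over the coding sequence, a relative scale on which a gene can fall because others take more of the reads, and translation efficiency (Eff) is the RPKM of RPF over that of RNA.

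Mapped reads, recovered from RPKM and coding length, numbered 217395 to 1765713 in the RPF libraries and 3757579 to 12307819 in the RNA libraries. The RPF libraries of brown cells at day 0 were the shallowest, with 242424 and 217395 reads, and 29.5% and 34.1% of all genes had fewer than 10 reads there. Over the 47 factors the median was 85.5 reads in an RPF library and 1011 in an RNA library, and the lowest values were 4 and 81. Of the markers fixed for the labelled cells, all 5 adipocyte genes were higher at day 5 in RPF of both lineages (median log2 change 3.92 in brown and 3.43 in white cells), and 4 and 3 of 4 fibroblast genes were lower (-3.51 and -2.49). Over all genes 26% and 16.7% were higher and 34.7% and 36.1% lower in brown and white RPF. At day 0 RPF of all 5 adipocyte genes stood above their RNA in both lineages. For Adipoq in white preadipocytes it was 149 and 160 RPKM, against 2.73 and 1.18 of RNA. The cause of this gap was not tested, and a fit that subtracts day 5 signal from day 0 RPF is given at the end. None of the brown adipocyte markers had a value in every library, so the brown label was not checked.

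In eukaryotes eIF4E binds the cap of an mRNA, eIF4G joins it to the helicase eIF4A, and eIF3 and the eIF2 ternary complex place the small ribosomal subunit and its initiator tRNA, after which eIF1, eIF1A and eIF5 govern the choice of the start codon. Elongation then runs on eEF1A, which delivers aminoacyl-tRNA, its exchange factor eEF1B, and eEF2, which moves the ribosome along. Many of these factors and nearly all ribosomal proteins are made from TOP mRNAs, which begin with a C followed by a run of pyrimidines and whose translation rises and falls with mTORC1 activity.

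Start-site sequences are shown for factors whose RPF fell together at day 5 and for others that did not, since a run of C and T at the start is the feature that TOP mRNAs share. Each window is 30 bases, from 5 bases before to 25 bases from the start annotated by RefSeq on GRCm38.p6, written 5′ to 3′ on the transcribed strand. Capitals mark the longest run of at least 8 bases that are C or T, anywhere in the window. The runs of Eef2, Eif3k and Eif3l begin downstream of the annotated start. Eef1a1, Eef2 and Eif3f are known TOP mRNAs, Eif3k and Eif4b fell as well, and Eif2s3x and Eif3l rose in brown cells.
Eef1a1, chr9:78481700-78481729, minus strand: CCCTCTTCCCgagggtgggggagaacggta
Eef2, chr10:81176626-81176655, plus strand: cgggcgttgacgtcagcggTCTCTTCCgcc
Eif3f, chr7:108934410-108934439, plus strand: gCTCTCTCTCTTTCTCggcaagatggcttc
Eif3k, chr7:28981864-28981893, minus strand: gcgctggtgctgaaagcgCCTTTCCCTTTg
Eif4b, chr15:102073768-102073797, plus strand: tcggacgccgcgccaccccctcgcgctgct
Eif2s3x, chrX:94212627-94212656, minus strand: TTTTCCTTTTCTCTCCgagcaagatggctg
Eif3l, chr15:79075218-79075247, plus strand: cttcttccgCTCTCTCCCacgggcttctgg

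A start-site entry was matched for 37 of the 47 factors, and 8 of these (21.6%) held such a run, as did 11.9% of the 27025 genes in the same table. Among the 9 factors known as TOP mRNAs (Eef1a1, Eef1b2, Eef1d, Eef1g, Eef2, Eif3e, Eif3f, Eif3h and Eif4b), 5 had an entry and 3 a run. The Eif4b window, of a known TOP mRNA, holds a longest run of 7, and the longest runs searched on this strand stand in Eif2s3x and Eif3f. The window of Eef1b2, a known TOP mRNA whose RPF fell in both lineages, is not shown and holds a longest run of 4. Eif2b5 and Eif4enif1 hold a run and are not shown either. The run was therefore present in factors that fell and in factors that rose. A match describes the annotated start and says nothing of where transcription began in these cells.

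The factors made up 1.28% and 1.23% of the mapped RPF reads in brown cells at day 5, against 2.03% and 2.01% in brown preadipocytes. In white cells the shares were 1.02% and 1.05% at day 5, against 1.87% and 1.84% at day 0. Most of the gap lay with the 5 elongation factors: their RPF share was 0.372% and 0.359% in brown cells at day 5 and 1.17% and 1.13% at day 0. The other 42 factors together held 0.909% and 0.870% in brown cells at day 5 and 0.858% and 0.879% at day 0, so that their share overlapped between the days in brown cells, and in white cells it was 0.721% and 0.710% at day 5 against 1.03% and 1.00% at day 0. Both tissues stood lower, with 0.763% and 0.783% of RPF reads on all factors in BAT and 0.763% and 0.726% in eWAT.

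**Figure D1:**
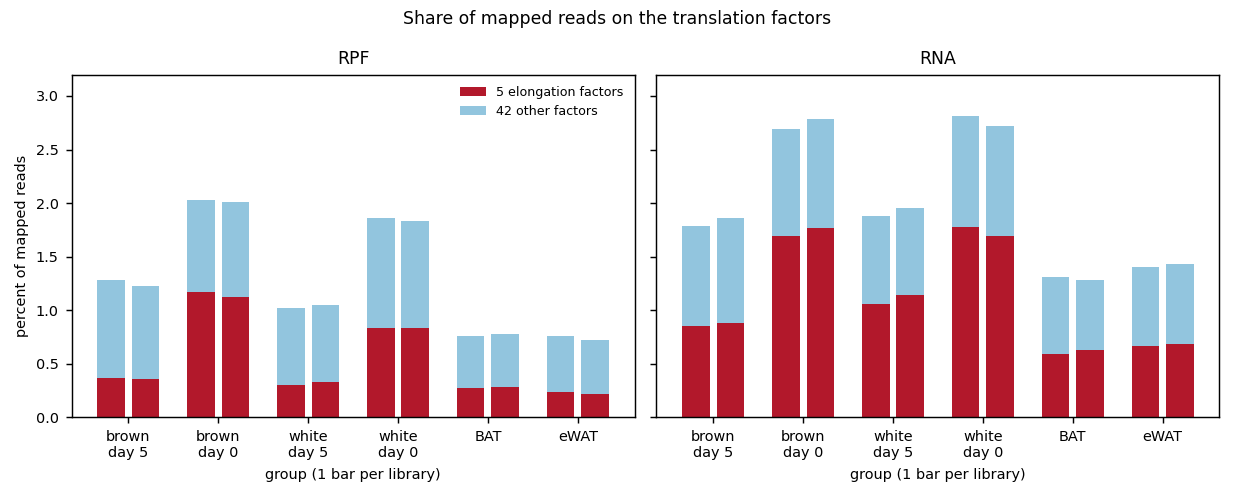
Percent of mapped reads that fell on the 5 elongation factors (red) and on the 42 other factors (blue) in each library, for RPF and for RNA, with the 2 libraries of each group side by side. The red share of RPF reads was 0.372% and 0.359% in brown cells at day 5 and 1.17% and 1.13% at day 0, while the blue share overlapped between those days.

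Eef1a1, the delivery factor of elongation, was the most abundant factor per coding length in all 6 groups and in both assays. Its mean RPF level was 1405 RPKM in brown cells at day 5, 3413 in brown preadipocytes, 1206 in white cells at day 5, 3147 in white preadipocytes, 1184 in BAT and 891 in eWAT. Eif5a, which helps the ribosome through difficult peptide bonds, came next in every group except brown preadipocytes, where Eef2 came next at 2169 RPKM and Eif5a stood at 981. At the other end, Eif4enif1, which carries eIF4E into the nucleus, had the lowest RPF level in every group, 2.85 to 12.9 RPKM, and rested on 5 and 12 reads in the RPF libraries of brown preadipocytes. The most abundant member by RPF was Eif1 among the start codon factors and Eif2b1 in eIF2B, and among eIF4E-binding proteins it was Eif4ebp1.

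The cap-binding protein Eif4e had the highest Eff of all factors in 5 groups, from 1.90 in BAT to 4.62 in white preadipocytes. In brown preadipocytes Eif3k, a small eIF3 subunit, was highest at 3.55, above 2.33 for Eif4e. The 9 known TOP factors had a median Eff of 0.422 in brown cells at day 5, 0.661 in brown preadipocytes, 0.293 in white cells at day 5, 0.466 in white preadipocytes, 0.466 in BAT and 0.372 in eWAT. The 38 other factors had medians between 0.870 in BAT and 1.24 in brown cells at day 5, near the median over all genes, which ran from 0.856 in eWAT to 1.03 in white preadipocytes. The 64 ribosomal protein genes stood lower still, between 0.224 in white cells at day 5 and 0.500 in brown preadipocytes, so the known TOP factors lay between the ribosomal proteins and the rest in each group. These are descriptions of classes with overlapping ranges: single TOP factors reached 1.56 (Eef1d in white preadipocytes).

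**Figure D2:**
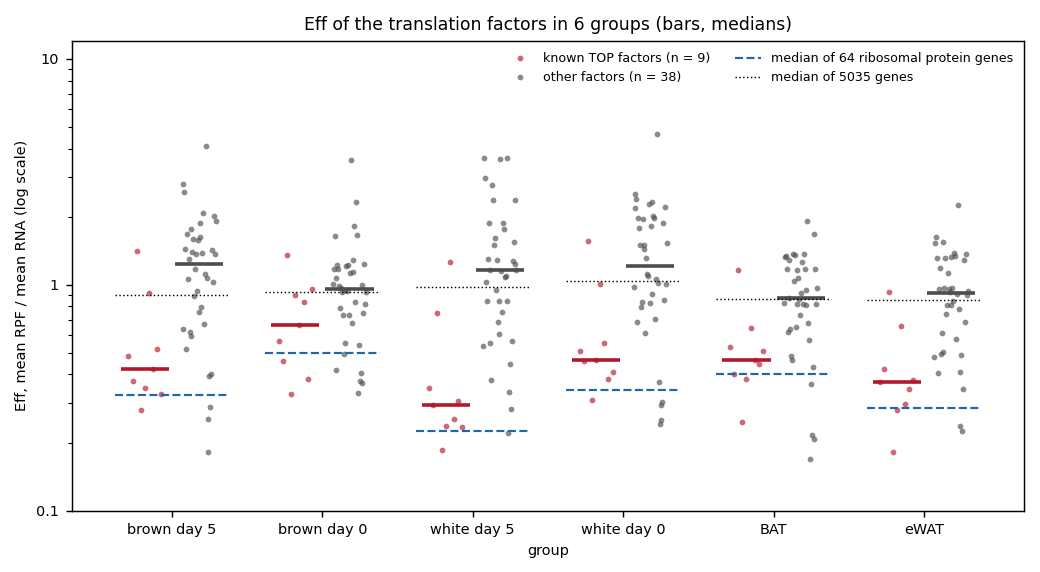
Eff of each factor in the 6 groups on a log axis, with the 9 known TOP factors and the 38 others as separate columns, bars at their medians, dashed lines at the median of 64 ribosomal protein genes and dotted lines at the median of 5035 genes. The TOP medians, 0.293 to 0.661, lie between the dashed and dotted lines in all 6 groups.

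The first comparison asked what changed in the factors as brown and white preadipocytes became adipocytes. In brown cells 13 factors rose and 11 fell in RPF at day 5 (background over all 5035 genes, 26% higher and 34.7% lower), with a median log2 change of 0.20 against -0.16 for all genes. In white cells 5 rose and 23 fell (background 16.7% and 36.1%), with a median of -0.58 against -0.38. For RNA the calls in brown cells were 9 higher and 22 lower (background 29.7% and 44.9%), and those in white cells 7 higher and 27 lower (background 27.5% and 53.4%). For Eff they were 10 higher and 9 lower in brown (background 16.1% and 19.9%) and 7 higher and 13 lower in white cells (background 7.94% and 16.3%).

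Calls were made with limma over all 5035 genes at an adjusted p under 0.05, and of the RPF calls 22 of 24 in brown and 20 of 28 in white cells held whichever single library was left out. The balance of directions depended on scaling. With libraries scaled by the median of ratios, which moves the median of all genes to -0.02 in brown and -0.04 in white RPF, the RPF split became 21 higher and 11 lower in the brown lineage and 5 higher and 15 lower in the white one. The RNA split became 14 higher and 13 lower for brown and 15 higher and 18 lower for white, and quantile scaling turned the white Eff split to 13 higher and 7 lower.

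**Figure D3:**
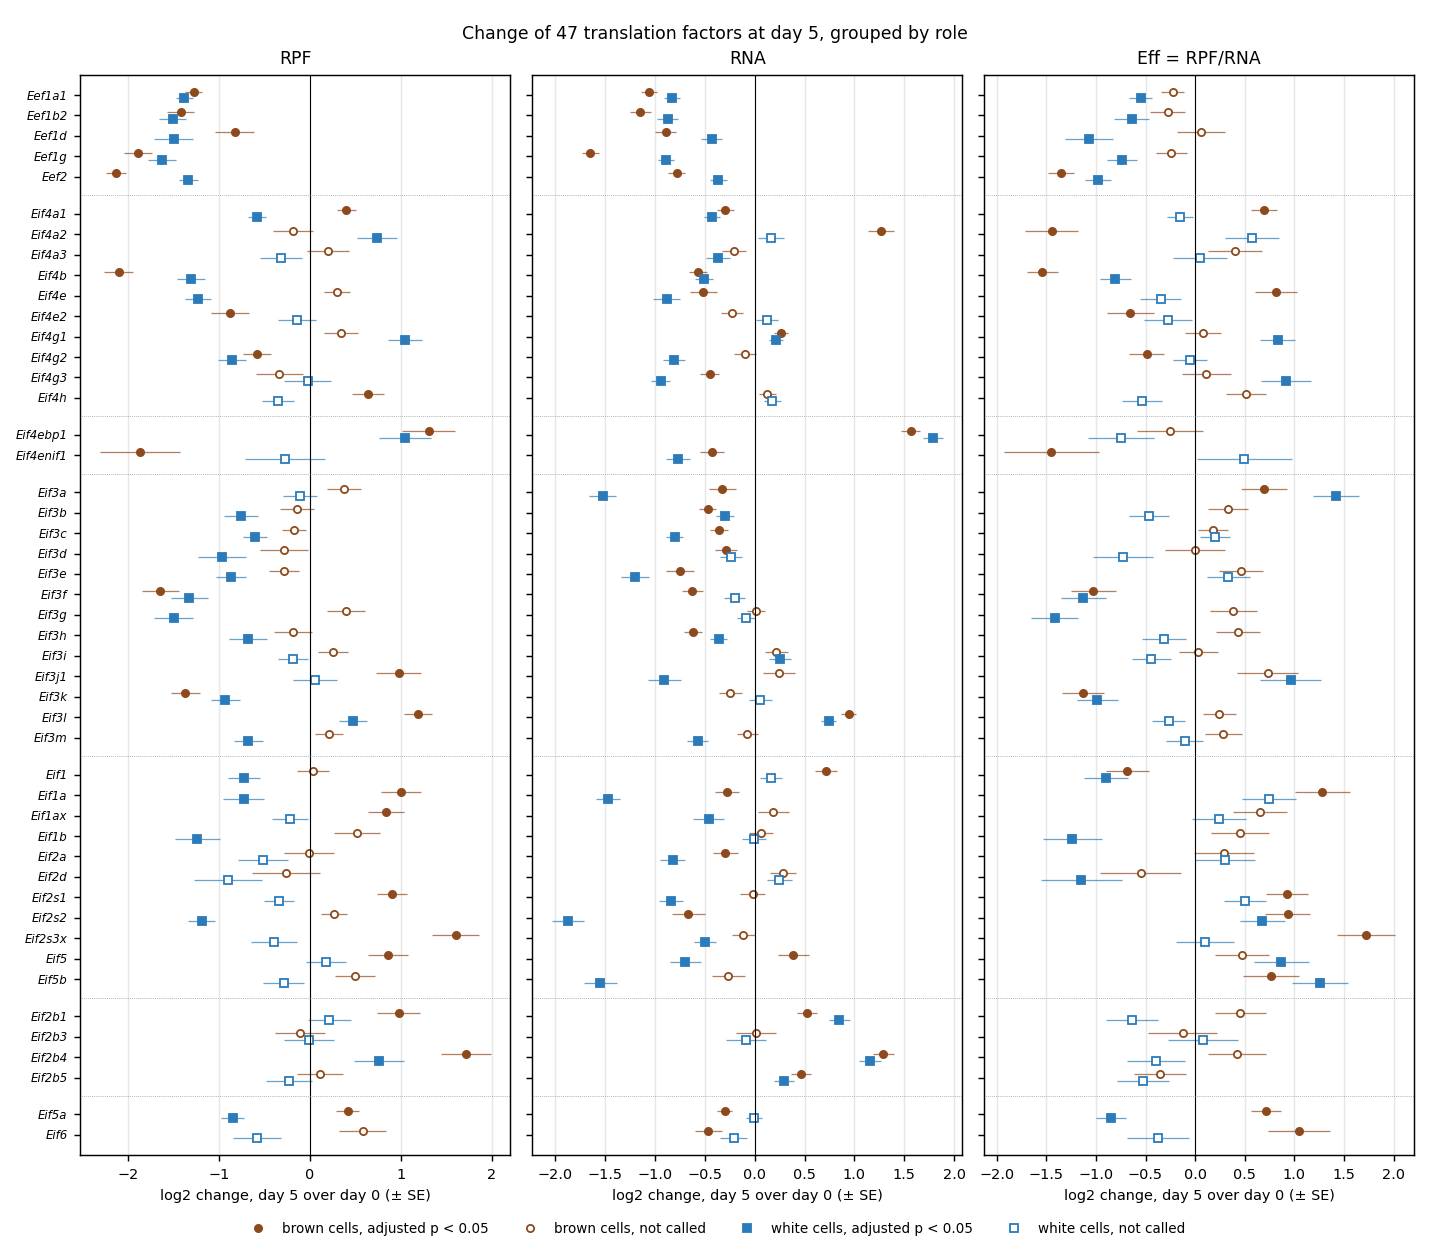
Log2 change at day 5 over day 0 of the 47 factors, ordered by role, in RPF, RNA and Eff, with brown cells as circles, white cells as squares, bars of 1 SE, and filled points where the adjusted p is under 0.05. All 5 elongation factors lie left of 0 in RPF and RNA in both lineages, and Eif2b4 and Eif4ebp1 lie right of 0.

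All 5 elongation factors fell in RPF and in RNA at day 5 in both lineages. The background was 34.7% lower in brown and 36.1% in white RPF, and 44.9% and 53.4% in RNA. The RPF calls and the brown RNA calls held under all the other processing settings. The white RNA calls of Eef1d and Eef2 did not hold under both the median of ratios and quantile scaling. The median RPF change of the 5 elongation factors was -1.42 in brown and -1.5 in white cells on the log2 scale. Eef1a1 had 1430 and 1379 RPKM of RPF in brown cells at day 5, against 3456 and 3370 at day 0, and 1159 and 1253 in white cells at day 5, against 3109 and 3184 at day 0. The day 5 libraries lay below both day 0 libraries in each lineage, with a change of -1.28 ± 0.09 (SE) in brown and -1.39 ± 0.09 in white cells (limma adjusted p = 5.54e-08 and 4.60e-08).

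Eef2, the translocase of elongation, had the lowest change of any factor in brown RPF. Its RPF level was 510 and 477 RPKM in brown cells at day 5, against 2215 and 2123 at day 0, and 398 and 460 in white cells at day 5, against 1075 and 1091 at day 0. Its RNA was 1408 and 1410 RPKM in brown cells at day 5, against 2425 and 2422 at day 0, and 1759 and 1855 in white cells at day 5, against 2357 and 2292 at day 0. The RPF change was thus larger than the RNA change in both lineages, with Eff changes of -1.35 ± 0.13 in brown and -0.97 ± 0.13 in white cells (adjusted p = 3.20e-07 and 2.19e-05).

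Eef1g, a subunit of the eEF1B exchange complex, fell most of all factors in brown RNA and in white RPF. It had 97.3 and 120 RPKM of RPF in brown cells at day 5, against 412 and 389 at day 0, and 128 and 124 in white cells at day 5, against 416 and 363 at day 0. Its RNA was 398 and 382 RPKM in brown cells at day 5, against 1192 and 1255 at day 0, a log2 change of -1.65 ± 0.08, and 656 and 702 in white cells at day 5, against 1260 and 1255 at day 0, a change of -0.89 ± 0.08. Groups did not overlap in any of these 4 pairs. Eef1b2 and Eef1d, further subunits of eEF1B, fell by 1.42 and 0.83 in brown RPF and by 1.51 and 1.5 in white RPF.

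Lower Eff of the elongation factors was called for 5 of 5 in white cells (median -0.74, background 16.3%) and for Eef2 alone in brown cells (median -0.24, background 19.9%). Of the white Eff calls only those of Eef1d and Eef2 held under all the other processing settings. That of Eef1b2 was lost without white RNA day 0 library 2, white RNA day 5 library 2 or white RPF day 0 library 1 (adjusted p = 0.0633 to 0.0705). The difference of the Eff changes of Eef1d, at 1.13 ± 0.34 for brown minus white (adjusted p = 0.0297), lost its call without any one of 9 of the 16 libraries (adjusted p = 0.0539 to 0.0799). These were the RPF day 5 library 1 of each lineage and all RNA libraries but white day 5 library 1. For Eef1a1, Eef1b2, Eef1g and Eef2 the difference of the Eff changes did not pass the test. It was 0.327, 0.362, 0.495 and -0.378 (limma adjusted p = 0.133 to 0.351). Over all 9 known TOP factors RPF fell in 7 in brown and 9 in white cells (background 34.7% and 36.1%). Eif3e and Eif3h were the exceptions in brown cells, with 194 and 158 RPKM of RPF at day 5 against 228 and 200 at day 0 for Eif3e, and 112 and 104 against 129 and 117 for Eif3h. The ribosomal protein genes moved in the same direction, with 56 of 64 lower in brown RPF (median -1.46, background 34.7%) and 60 of 64 in white RPF (median -1.23, background 36.1%).

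In the eIF4 group, which handles the cap and unwinds the leader of the mRNA, members moved apart. Eif4b, a TOP mRNA whose protein stimulates the helicase eIF4A, had 76.3 and 79.6 RPKM of RPF in brown cells at day 5, against 342 and 331 at day 0, and 57.1 and 59.0 in white cells at day 5, against 146 and 141 at day 0. RNA of Eif4b moved less, to 230 and 243 RPKM in brown cells at day 5, against 338 and 366 at day 0. RPF of Eif4b fell by 2.11 ± 0.16 in brown and by 1.31 ± 0.16 in white cells, and its Eff by 1.54 ± 0.16 in brown cells, the lowest Eff change of any factor there.

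The helicases Eif4a1 and Eif4a2 took different courses. Eif4a1 had 1128 and 1041 RPKM of RPF in brown cells at day 5, against 771 and 875 at day 0, and 885 and 841 in white cells at day 5, against 1318 and 1269 at day 0. Its RPF was above day 0 in brown cells (0.40 ± 0.10) and below it in white cells (-0.58 ± 0.10), but quantile scaling turned the brown change to -0.27 (adjusted p = 0.0476). Eif4a2 RNA was 329 and 330 RPKM in brown cells at day 5, against 142 and 132 at day 0, and 170 and 150 in white cells at day 5, against 148 and 137 at day 0.

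Eif4a2 RNA thus rose in brown cells (1.26 ± 0.13) and did not pass the test in white cells (0.16 ± 0.13), and the difference of the changes did, at 1.10 ± 0.18 (adjusted p = 8.78e-04). RPF of Eif4a2 did not follow: it was 246 and 193 RPKM in brown cells at day 5 and 212 and 287 at day 0, overlapping, and 212 and 133 in white cells at day 5 against 97.1 and 104 at day 0. The white change of 0.74 ± 0.22 lost its call without white day 0 library 1 or white day 5 library 1 (adjusted p up to 0.168). Eff of Eif4a2 fell by 1.45 ± 0.27 in brown cells, where RPF at day 0 rested on 56 and 68 reads.

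Eif4e had 289 and 295 RPKM of RPF in brown cells at day 5, against 221 and 254 at day 0, and 181 and 221 in white cells at day 5, against 481 and 459 at day 0. Its scaffold partner Eif4g1 went the other way in white cells, with 83.1 and 90.1 RPKM of RPF at day 5 against 37.0 and 47.6 at day 0. In white cells Eif4e fell by 1.23 ± 0.14 and Eif4g1 rose by 1.04 ± 0.19, while in brown cells neither passed the test in RPF (0.30 ± 0.14 and 0.35 ± 0.19). Eif4g2, an eIF4G-like factor without the eIF4E-binding site, fell in RPF of both lineages, by 0.58 in brown and 0.86 in white cells.

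Eif4ebp1, which holds eIF4E away from eIF4G until mTORC1 phosphorylates it, had the highest RNA change of any factor. Its RNA was 1307 and 1160 RPKM in brown cells at day 5, against 431 and 403 at day 0, and 1390 and 1312 in white cells at day 5, against 373 and 410 at day 0. Its RPF was 310 and 315 RPKM in brown cells at day 5, against 81.8 and 195 at day 0, and 276 and 321 in white cells at day 5, against 161 and 129 at day 0. Its RNA change was 1.56 ± 0.10 for brown and 1.79 ± 0.10 for white cells, and RPF rose by 1.31 ± 0.29 and 1.04 ± 0.29, with no overlap between days.

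The day 0 RPF values of Eif4ebp1 in brown cells stood on 7 and 15 reads, and the white RPF call was lost without white day 0 library 2 or white day 5 library 2 (adjusted p = 0.057 to 0.0644). Its Eff was 0.254 in brown cells at day 5 and 0.333 at day 0, and 0.221 in white cells at day 5 and 0.370 at day 0, and neither Eff change passed the test. Eif4enif1 had 4.12 and 2.36 RPKM of RPF in brown cells at day 5, against 6.99 and 18.7 at day 0, and its change of -1.88 ± 0.44 had the largest SE of the brown RPF calls, with 5 and 12 reads at day 0.

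**Figure D4:**
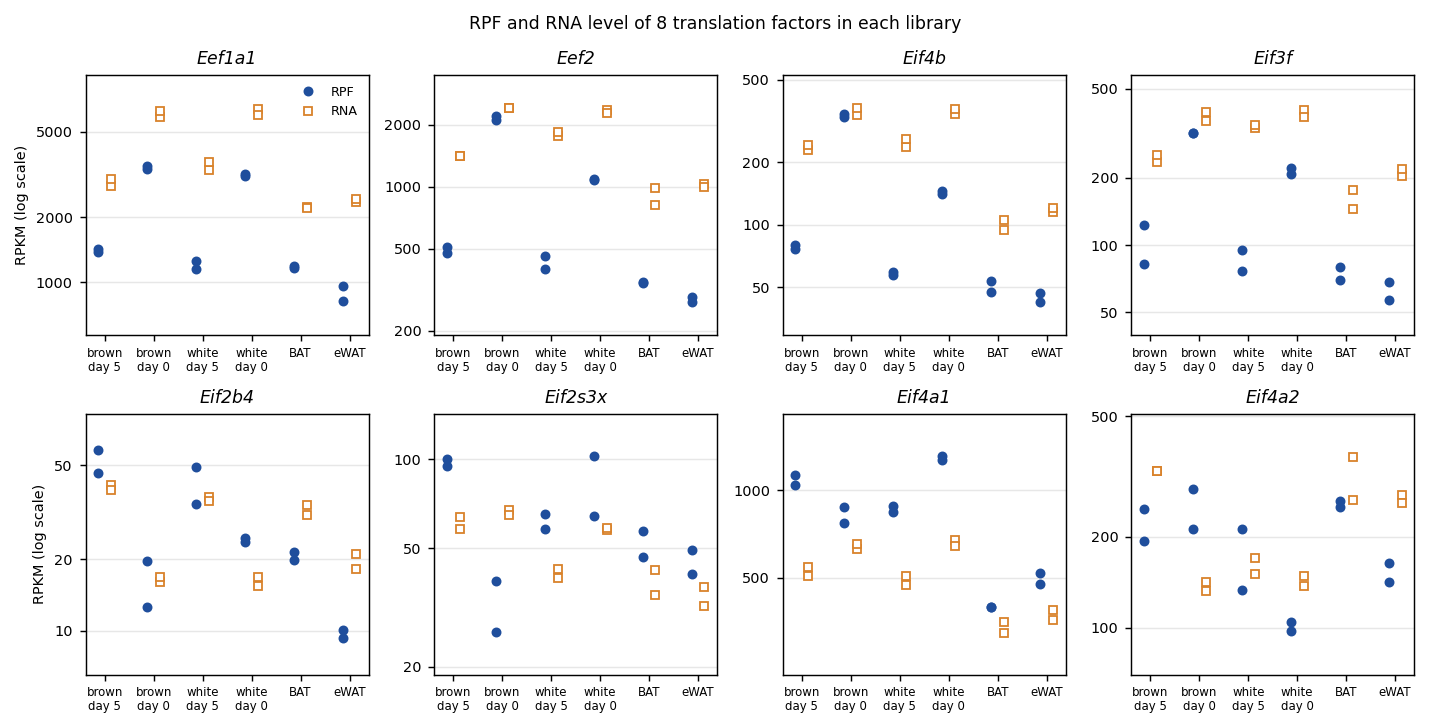
RPKM of RPF (filled circles) and RNA (open squares) of 8 factors in each of the 2 libraries of the 6 groups, on log axes. Eef1a1, Eef2, Eif4b and Eif3f are lower at day 5 than at day 0 in both lineages, Eif2b4 is higher, Eif2s3x RPF is lowest in brown preadipocytes (26.2 and 38.9 RPKM), and Eif4a2 RNA is higher at day 5 in brown cells.

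Among the 13 subunits of eIF3, the scaffold of the initiating small subunit, 2 rose and 2 fell in brown RPF (background 26% and 34.7%), and 1 rose and 9 fell in white RPF (background 16.7% and 36.1%). Of the 9, the call of Eif3d was lost without white day 5 library 2 (adjusted p = 0.107). The call of Eif3h was lost without white day 0 library 1 or white day 5 library 1 (0.119 to 0.139). Those of Eif3b, Eif3c and Eif3m did not hold under both the median of ratios and quantile scaling. Only the falls of Eif3e, Eif3f, Eif3g and Eif3k held under all the other processing settings. Eif3f, a known TOP mRNA, had 123 and 82.5 RPKM of RPF in brown cells at day 5, against 316 and 318 at day 0, and 77.0 and 95.0 in white cells at day 5, against 221 and 209 at day 0. Eif3k had 363 and 314 RPKM of RPF in brown cells at day 5, against 924 and 827 at day 0, and 298 and 279 in white cells at day 5, against 632 and 479 at day 0. RPF of Eif3f fell by 1.65 ± 0.20 in brown and 1.33 ± 0.20 in white cells, and that of Eif3k by 1.37 ± 0.16 and 0.93 ± 0.16.

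RNA of Eif3k did not show this: it was 215 and 202 RPKM in brown cells at day 5 against 231 and 263 at day 0, and 233 and 267 against 248 and 232 in white cells, where the days overlapped. Eff of Eif3k therefore fell by 1.13 ± 0.21 in brown and 0.99 ± 0.21 in white cells, and Eff of Eif3f by 1.02 ± 0.23 and 1.13 ± 0.23. Eif3k is not on the list of known TOP mRNAs used here. The pyrimidine run in its window above begins downstream of the annotated start, not at it.

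Eif3l, the partner of Eif3k within the complex, rose instead. Its RPF was 214 and 203 RPKM in brown cells at day 5, against 102 and 81.5 at day 0, and 178 and 175 in white cells at day 5, against 125 and 129 at day 0. Its RNA was 262 and 263 RPKM in brown cells at day 5, against 134 and 138 at day 0, and 230 and 236 in white cells at day 5, against 141 and 138 at day 0. The RNA changes were 0.94 ± 0.08 and 0.74 ± 0.08 and the brown RPF change 1.19 ± 0.16, and the white RPF change of 0.47 ± 0.16 lost its call without any one of its 4 libraries (adjusted p = 0.062 to 0.0922).

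Eif3g, an RNA-binding subunit, split by lineage. It had 161 and 165 RPKM of RPF in brown cells at day 5, against 146 and 105 at day 0, and 90.7 and 83.0 in white cells at day 5, against 292 and 207 at day 0. RPF fell in white cells by 1.5 ± 0.21 and did not pass the test in brown cells (0.40 ± 0.21). RNA of Eif3g lay between 99.5 and 111 RPKM in all 8 culture libraries, so the white Eff fell by 1.41 ± 0.24.

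Eif3a, the largest subunit of eIF3, moved mostly in RNA of white cells. Its RNA was 75.8 and 54.6 RPKM in white cells at day 5, against 189 and 182 at day 0, while RPF was 96.1 and 113 against 103 and 122, overlapping. The RNA change was -1.53 ± 0.14 and the Eff change 1.42 ± 0.23, the highest Eff change of any factor in white cells. In the scaling by median of ratios the white RNA change of Eif3b, another core subunit, moved from -0.30 to 0.00, so its RNA direction was not settled.

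Of the 11 start codon and eIF2 factors, 5 rose and 0 fell in brown RPF (median 0.52), and 0 rose and 4 fell in white RPF (median -0.52). The background was 26% higher and 34.7% lower in brown and 16.7% and 36.1% in white cells. The white call of Eif1 was lost without white day 5 library 2 (adjusted p = 0.0571). That of Eif1a was lost without white day 0 library 2 or white day 5 library 1 (0.105 to 0.111). Eif2s3x, the X-linked gene of the gamma subunit of eIF2, which binds the initiator tRNA, had 94.4 and 100 RPKM of RPF in brown cells at day 5, against 26.2 and 38.9 at day 0, and 65.1 and 58.1 in white cells at day 5, against 102 and 64.5 at day 0. Its RNA was 58.2 and 63.8 RPKM in brown cells at day 5, against 67.2 and 64.7 at day 0. RPF rose by 1.61 ± 0.26 in brown cells, and Eff by 1.72 ± 0.29 (adjusted p = 1.21e-04 and 1.60e-04), on 9 and 12 reads in the brown day 0 libraries, while the white RPF change of -0.40 ± 0.26 did not pass the test.

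Eif2s1, the alpha subunit that the eIF2 kinases phosphorylate, had 183 and 204 RPKM of RPF in brown cells at day 5, against 105 and 102 at day 0. Eif2s2, the beta subunit, had 183 and 166 RPKM of RPF in white cells at day 5, against 430 and 369 at day 0, and 83.6 and 64.2 RPKM of RNA there, against 267 and 269. RPF of Eif2s1 rose by 0.90 in brown cells, and for Eif2s2 RPF fell by 1.19 ± 0.15 and RNA by 1.87 ± 0.16 in white cells, the lowest RNA change of any factor there. In brown cells Eif2s2 RPF was 277 and 251 RPKM at day 5 and 236 and 203 at day 0 (0.27 ± 0.15, no call).

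Eif1a, for the eIF1A protein that works at the start codon, had 353 and 417 RPKM of RPF in brown cells at day 5, against 247 and 148 at day 0, and its X-linked copy Eif1ax had 353 and 401 against 209 and 212. RPF rose by 1.00 ± 0.22 for Eif1a and 0.84 for Eif1ax in brown cells. RNA of Eif1a was 60.7 and 63.1 RPKM in white cells at day 5 against 177 and 166 at day 0, and RNA of Eif5b, which joins the ribosomal subunits, was 20.8 and 13.9 against 48.3 and 51.3. These white RNA changes were -1.47 ± 0.12 and -1.55 ± 0.17, and 8 of the 11 start codon and eIF2 factors fell in white RNA (background 53.4%). How reads shared by similar copies were assigned was not tested, so levels of these genes are uncertain. Such pairs are Eif1a and Eif1ax, Eif1 and Eif1b, Eif4a1 and Eif4a2, Eif2s3x and Eif2s3y, and Eif3j1 and Eif3j2.

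Eif1b, a copy of the start codon factor eIF1, had 76.8 and 52.9 RPKM of RPF in white cells at day 5, against 151 and 150 at day 0, and its white RNA was 58.7 and 67.5 RPKM at day 5, against 63.9 and 62.4 at day 0. RPF and Eff both fell by 1.24 there. The copy Eif1 had 619 and 440 RPKM of RPF in brown cells at day 5 and 484 and 540 at day 0, overlapping, although its RNA was 844 and 824 RPKM against 497 and 521 and rose by 0.71 ± 0.11.

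In eIF2B, the exchange factor that recharges eIF2 with GTP, 3 of 4 subunits rose in RNA in each lineage (background 29.7% in brown and 27.5% in white cells). The white call of Eif2b5 was lost without white day 0 library 2 or white day 5 library 2 (adjusted p = 0.123 to 0.128). Eif2b4, the delta subunit, had the highest RPF change of all factors in brown cells. Its RPF was 46.5 and 57.8 RPKM in brown cells at day 5, against 12.6 and 19.7 at day 0, and 34.3 and 48.9 in white cells at day 5, against 23.7 and 24.6 at day 0. Its RNA was 41.3 and 39.1 RPKM in brown cells at day 5, against 16 and 16.8 at day 0, and 36.7 and 35.2 in white cells at day 5, against 15.5 and 16.8 at day 0.

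No day 5 library of Eif2b4 overlapped a day 0 library. Its RNA change was 1.29 ± 0.11 for brown and 1.16 ± 0.11 for white cells, and RPF rose by 1.72 ± 0.27 in brown cells on 5 and 7 reads at day 0. The white RPF change of 0.76 ± 0.27 lost its call without white day 0 library 1, white day 0 library 2 or white day 5 library 2 (adjusted p = 0.083 to 0.227).

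Eif5a had 1241 and 1373 RPKM of RPF in brown cells at day 5, against 1040 and 922 at day 0, and 1002 and 855 in white cells at day 5, against 1644 and 1698 at day 0. RPF fell by 0.85 ± 0.12 in white cells. The brown change of 0.41 ± 0.12 lost its call without brown day 0 library 2 or brown day 5 library 2 (adjusted p = 0.068 to 0.0901), and quantile scaling turned it to -0.26. Eff of Eif5a nevertheless moved oppositely in the lineages, by 0.71 ± 0.15 in brown and -0.84 ± 0.15 in white cells.

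The difference of the day 5 changes between the lineages was tested directly. In RPF the brown change exceeded the white change for 15 factors and fell short of it for 3 (background 20% and 11.3%), with a median difference of 0.62 against 0.20 for all genes. In RNA the counts were 15 and 4 (background 21.6% and 13.7%, medians 0.13 and 0.08), and in Eff 9 and 2 (background 9.79% and 5.78%, medians 0.36 and 0.08). These comparisons share the libraries of the single-lineage comparisons and add no separate evidence.

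The start codon and eIF2 factors gave 7 of the 15 RPF calls, led by Eif2s3x at 2.00 ± 0.36, Eif1b at 1.76 ± 0.35 and Eif1a at 1.73 ± 0.32. Outside that group Eif3g stood at 1.90 ± 0.30, Eif4e at 1.53 ± 0.20 and Eif5a at 1.27 ± 0.18. The lower ones were Eef2 at -0.80 ± 0.15, Eif4b at -0.80 ± 0.22 and Eif4a2 at -0.92 ± 0.31.

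Of these lineage differences 10 RPF calls held under all the other processing settings: Eef2, Eif1a, Eif1b, Eif2s1, Eif2s2, Eif2s3x, Eif3g, Eif4a1, Eif4e and Eif5a. The Eif4b call was lost without brown day 5 library 1 (adjusted p = 0.0573), and the Eif4a2 call without brown day 0 library 2, brown day 5 library 2, either white day 0 library or white day 5 library 1 (adjusted p up to 0.155). With the median of ratios the RPF split was 12 higher and 7 lower and with quantile scaling 9 and 6, and the RNA split was 11 and 9 and the Eff split 5 and 5 with those scalings. The RNA count was 11 or 12 without brown day 0 library 2 (11 and 1), brown day 5 library 2 (10 and 1), white day 0 library 1 (10 and 1), white day 0 library 2 (11 and 1) or white day 5 library 2 (10 and 1).

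Brown and white cells were also set against each other on each day. At day 5 the macrophage marker Lyz2 had 43.2 and 37.9 RPKM of RPF in brown cells, against 240 and 231 in white cells. Of the fibroblast markers there, Col1a1 had 639 and 659 against 1605 and 1687, and Pdgfra 67.9 and 75.1 against 289 and 313. Pdgfrb was also lower in brown cells, and Thy1 overlapped. The part of cell makeup in the comparisons of cultures, with the difference of the day 5 changes, was not tested. Between preadipocytes no factor passed the test in RNA (background 2.9% higher and 0.854% lower), with 1 higher and 1 lower at an unadjusted p under 0.05, 0 by voom on the recovered reads and 2 when limma was fitted on these groups alone. In RPF of the same cells, 7 factors were higher and 15 lower in brown preadipocytes (background 12.4% and 24.9%), with a median log2 difference of -0.36 against -0.18 for all genes. In Eff 8 were higher and 14 lower (background 10.9% and 22.2%). The RPF libraries of brown preadipocytes were the shallowest of all, at 217395 and 242424 reads against 388150 and 547096 in white preadipocytes, and the part of depth in these counts was not tested.

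Higher in RPF of brown preadipocytes were Eef2 with 2215 and 2123 RPKM, against 1075 and 1091 in white preadipocytes, and Eif4b with 342 and 331 RPKM, against 146 and 141. Eif4a2 had 212 and 287 RPKM of RPF in brown preadipocytes, against 97.1 and 104 in white ones. The differences were 1.00 ± 0.11, 1.23 ± 0.16 and 1.3 ± 0.22, with no overlap, while RNA of the same genes was near equal, such as 2425 and 2422 RPKM for Eef2 in brown against 2357 and 2292 in white preadipocytes.

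Lower in RPF of brown preadipocytes was Eif2s3x with 26.2 and 38.9 RPKM, against 102 and 64.5 in white preadipocytes (-1.34 ± 0.26). Eif4e had 221 and 254 RPKM of RPF in brown preadipocytes, against 481 and 459 in white ones (-0.99 ± 0.14). Of the 11 start codon and eIF2 factors, 5 were lower and 0 higher in RPF of brown preadipocytes (median -0.63, background 24.9% lower and 12.4% higher). By the median of ratios the RPF split over all factors was 9 higher and 11 lower. The Eff split was 9 and 9 under quantile scaling, and without white day 0 RPF library 2 or brown day 0 RNA library 1 it was 4 and 10 or 3 and 11.

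At day 5 the lineages differed in RNA, with 17 factors higher and 9 lower in brown cells (background 32% and 19.9%). All 5 elongation factors were called lower in brown RNA (median -0.36), and of these calls only those of Eef1g and Eef2 held whichever library was left out. The call of Eef1a1 (-0.26 ± 0.08) was lost without brown day 5 library 1 or white day 5 library 2 (adjusted p = 0.124 to 0.156). That of Eef1b2 was lost without either of the same libraries (0.0814 to 0.0987). That of Eef1d was lost without either of them or brown day 5 library 2 (0.064 to 0.152). Of the start codon and eIF2 factors 8 were higher (median 0.74), led by Eif2s2 with 178 and 200 RPKM in brown cells, against 83.6 and 64.2 in white cells (1.37 ± 0.16). With the median of ratios the split was 14 and 13, and without white day 5 library 2 it was 14 and 3.

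RPF differed less at day 5: 6 factors were higher (Eif5a, Eif4e, Eif2s2, Eif4g2, Eif1a and Eif3g) and 0 lower (background 5.48% and 8.26%), with 17 higher and 0 lower at an unadjusted p under 0.05 and 14 calls by voom. None of the 6 calls held under every single omission: 0 were left without brown day 5 library 1, and 2 without brown day 5 library 2 or white day 5 library 2. Eff was higher for 7 factors and lower for 2 (background 2.24% and 5.16%), with 4 elongation factors among the 7 (median of the 5, 0.56). Of these 9 Eff calls only that of Eif5a (0.72 ± 0.15) held whichever library was left out. It was lost under quantile scaling and with the replicate number as a block. The counts in Eff were 2 and 1 without brown day 5 RNA library 1, 2 and 0 without brown day 5 RNA library 2 or brown day 5 RPF library 1, 1 and 0 without white day 5 RNA library 2, and 5 and 0 without brown day 5 RPF library 2.

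The last comparison set BAT against eWAT, where fewer cells of a type and less RNA per cell cannot be told apart. In RPF 5 factors were higher and 7 lower in BAT (background 11.6% and 28.1%), with a median of -0.02 against -0.31 for all genes. In RNA 5 were higher and 12 lower (background 19.1% and 50.2%), and in Eff 2 were higher and 1 lower (background 3.12% and 0.933%). Lyz2, the only macrophage marker with a value in every library, had 693 and 682 RPKM of RPF in BAT, against 1874 and 1431 in eWAT, and 3 of 4 fibroblast markers were lower in BAT RPF. The part of cell makeup in the factor results was not tested.

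Eif5, which makes eIF2 hydrolyse its GTP at the start codon, gave the largest difference of the 47 factors in RPF and in Eff. It had 19.9 and 18 RPKM of RPF in BAT, against 45.1 and 52.5 in eWAT, while its RNA was 111 and 71.7 RPKM in BAT and 69.5 and 72.9 in eWAT, overlapping. RPF of Eif5 was lower in BAT by a log2 difference of -1.36 ± 0.22 and its Eff by -1.69 ± 0.27 (adjusted p = 2.91e-04 and 9.29e-04). Its Eff was 0.208 in BAT and 0.685 in eWAT, against 0.751 to 1.54 in the cultured groups.

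Eif1, which keeps the scanning ribosome open and acts against eIF5, went the other way. It had 559 and 593 RPKM of RPF in BAT, against 249 and 267 in eWAT, and 775 and 613 RPKM of RNA in BAT, against 502 and 573 in eWAT. RPF of Eif1 was higher in BAT by 1.16 ± 0.18 (adjusted p = 1.81e-04). The RNA difference of 0.36 ± 0.11 lost its call without BAT library 1 or eWAT library 1 (adjusted p = 0.1 to 0.114) and turned to -0.16 under quantile scaling. The Eff call (0.80 ± 0.22) was lost without any one of 7 of the 8 libraries (all but BAT RNA library 1, adjusted p = 0.0668 to 0.193).

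Eif2b4 was higher in BAT as it was at day 5, with 19.8 and 21.5 RPKM of RPF in BAT, against 10.1 and 9.30 in eWAT, and 30.9 and 33.8 RPKM of RNA, against 18.2 and 21.0. Eif2b3, the gamma subunit of the same complex, had 14.2 and 16.5 RPKM of RPF in BAT, against 24 and 28.9 in eWAT. This call was lost without any one of the 4 libraries (adjusted p = 0.0668 to 0.18). Eif4g3, a relative of Eif4g1, had 17.8 and 17.5 RPKM of RNA in BAT, against 44.9 and 44.2 in eWAT, and 8.12 and 7.09 RPKM of RPF, against 15.4 and 15.4. The RNA differences were 0.73 ± 0.11 for Eif2b4, -0.95 for Eif2b3 and -1.34 ± 0.10 for Eif4g3, and the RPF call of Eif4g3 (-1.02 ± 0.26) was lost without BAT library 2 (adjusted p = 0.0561).

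Eef1a1 had 1172 and 1195 RPKM of RPF in BAT, against 963 and 819 in eWAT, and 2236 and 2215 RPKM of RNA in BAT, against 2349 and 2449 in eWAT. Its RPF difference of 0.41 ± 0.09 turned to -0.36 under quantile scaling (adjusted p = 0.0202), and its Eff difference of 0.52 ± 0.12 lost its call without eWAT RNA library 2 or eWAT RPF library 2 (adjusted p = 0.0542 to 0.0629). The other elongation factors did not pass the test in RPF. Ribosomal proteins had 23 of 64 genes higher in Eff in BAT and 1 lower (median 0.56, background 3.12% and 0.933%).

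Few tissue calls were firm: 3 of 12 in RPF (Eif1, Eif2b4 and Eif5), 5 of 17 in RNA (Eef1g, Eif1a, Eif2b4, Eif3l and Eif4g3) and 1 of 3 in Eff (Eif5) held under all the other processing settings. The RPF counts were 3 higher and 3 lower without BAT library 1, 3 and 2 without BAT library 2, 5 and 2 without eWAT library 1 and 3 and 4 without eWAT library 2. The RNA counts were 13 and 16 without BAT library 2, and the Eff counts 0 and 1 without eWAT RNA library 2 or eWAT RPF library 2. With the median of ratios, which moves the median of all genes to -0.04 in RPF and RNA, the splits were 11 and 2 in RPF and 17 and 4 in RNA, and with quantile scaling 5 and 4 in RPF and 14 and 13 in RNA.

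**Figure D5:**
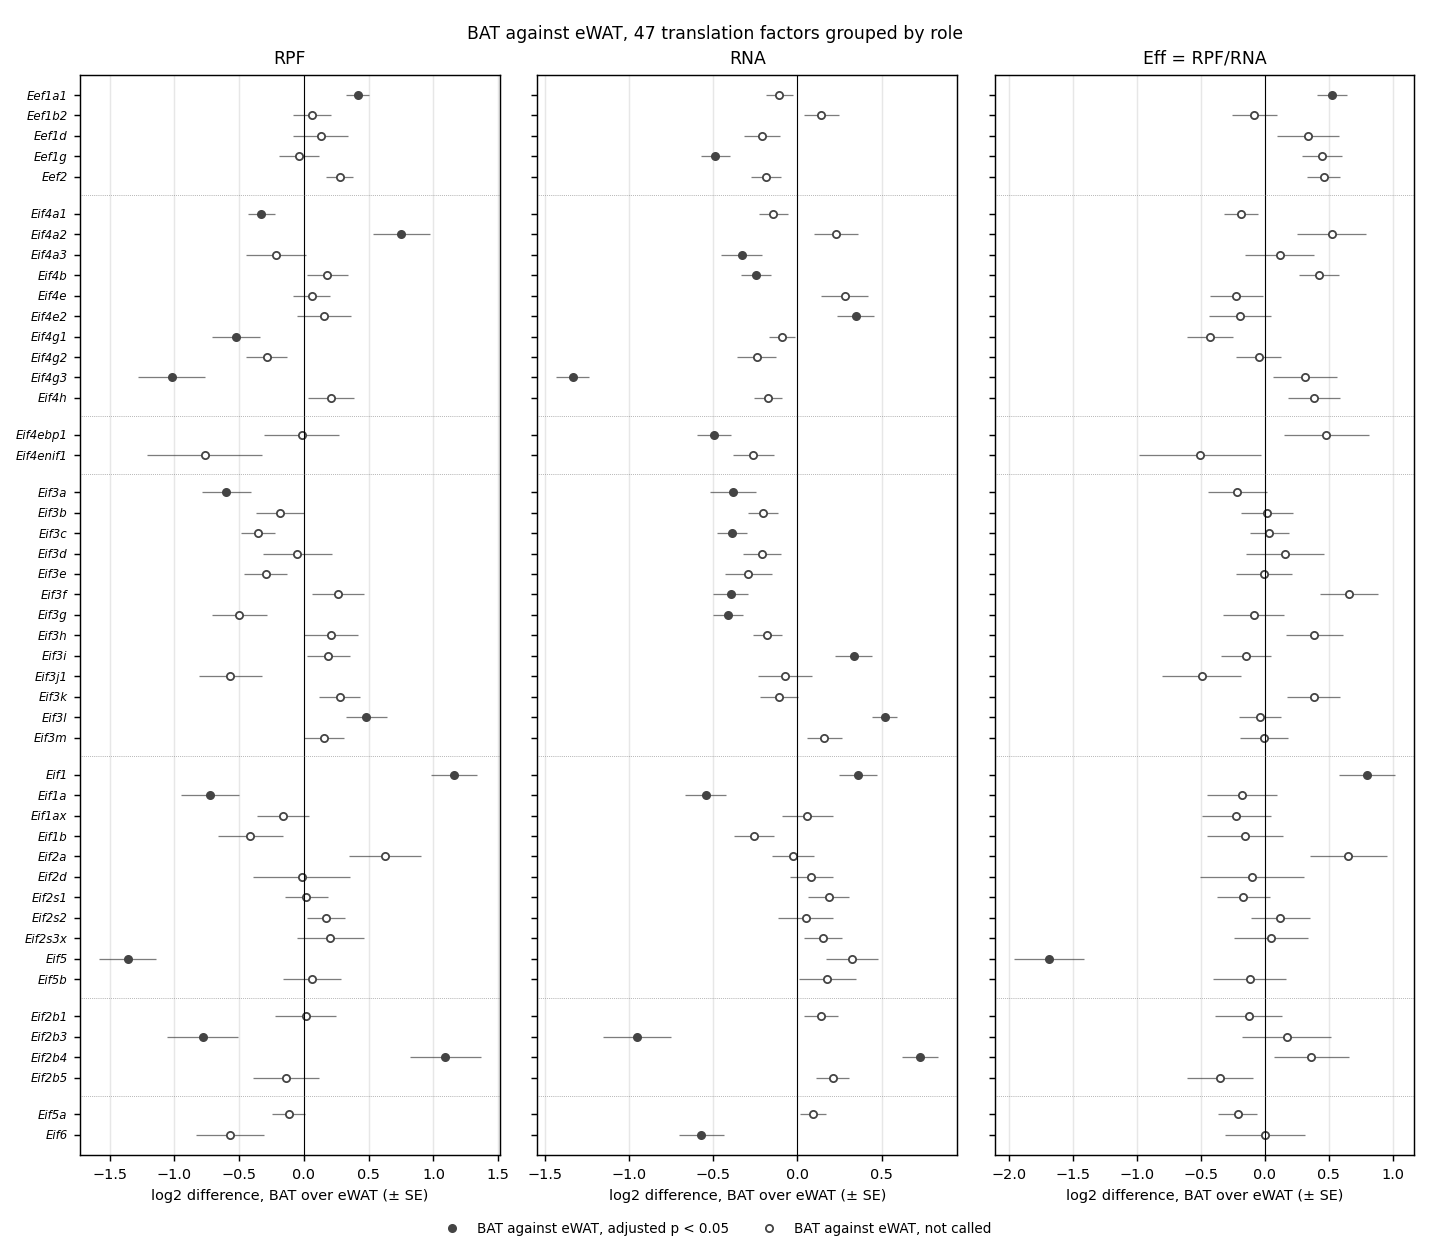
Log2 difference of BAT over eWAT for the 47 factors, ordered by role, in RPF, RNA and Eff, with bars of 1 SE and filled points where the adjusted p is under 0.05. Eif5 lies at -1.36 in RPF and -1.69 in Eff, and Eif1 at 1.16 in RPF.

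Genes around the factors gave the following counts. Of 9 genes of termination, recycling and poly(A) binding, 3 rose and 2 fell in brown RPF (median 0.09) and 0 rose and 6 fell in white RPF (median -0.66), against a background of 26% higher and 34.7% lower in brown and 16.7% and 36.1% in white cells. Etf1, which recognises stop codons, rose by 1.48 ± 0.22 in brown and fell by 0.85 ± 0.22 in white RPF. Pabpc1, the poly(A)-binding protein and itself made from a TOP mRNA, fell by 2.62 ± 0.16 in brown and by 0.88 ± 0.16 in white RPF, and its Eff fell by 2.03 ± 0.15 in brown cells, with a value of -0.13 ± 0.15 in white cells. In BAT Pabpc4 was higher than in eWAT, by 2.13 ± 0.34 in RPF.

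Of 16 regulators of the factors, 4 rose and 8 fell in brown RPF (background 26% and 34.7%) and 3 rose and 4 fell in white RPF (background 16.7% and 36.1%). Akt1s1, a subunit of mTORC1 that restrains it, fell by 2.39 ± 0.32 in brown and 1.96 ± 0.32 in white RPF, with Eff changes of -2.09 ± 0.36 and -2.30 ± 0.36. Pdcd4, an inhibitor of eIF4A, rose by 2.84 ± 0.30 in brown and 1.53 ± 0.30 in white RPF, and RNA of Mknk2, a kinase that phosphorylates eIF4E, rose by 3.45 ± 0.11 and 3.92 ± 0.11. All 4 factors of mitochondrial translation with a value in every library rose in brown RPF (median 1.69) and 3 of 4 in white RPF (median 1.67), among them Gfm1, the mitochondrial counterpart of eEF2, by 2.99 ± 0.21 and 2.08 ± 0.21. Their direction was opposite to that of the 5 cytosolic elongation factors.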

How the data were processed

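Members and gene lists were chosen with earlier results of these data known. Per the labels, the tools of the authors were cutadapt 1.8.3, Bowtie 1.0.0 and TopHat2 2.0.9, and they deposited RPKM per gene over the coding sequence. By the study's methods, mapping tolerated no mismatch and kept 1 site for a read, and how reads matching several genes were handled is not given in the sources used here. The genome build of the table is not given in the sources used here. Of 22418 rows, 6219 held no value and 11164 held values in some libraries only, and the 5035 complete rows were tested. Log2 RPKM, with no pseudocount, entered limma 3.58.1 (R 4.3.3, trend on), in separate models of 12 libraries for RPF and for RNA and, for Eff, in 1 model of all 24 libraries with an assay by group term, with Benjamini-Hochberg adjustment over all genes at 0.05. An SE rests on 1 variance per gene shared by all libraries of the fit. The fits were tested on simulated data.

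Whole reads were recovered from the deposited RPKM and coding lengths (98.6% to 98.9% of values within 0.05 of a whole number, depending on the library) and used for depth and for voom. The 2 libraries per group and the read numbers limit precision. Counting error enters the spread, but 1 variance per gene is shared by libraries of unequal depth, and the lowest values rest on a few reads. For genes with few reads, the SE and adjusted p of comparisons with the shallow brown day 0 RPF libraries can therefore be too small. Eif2b4 had 5 and 7 reads there and Eif1b 7 and 4. Genes given library by library were the extremes of each comparison, the most abundant member of each role and pairs set by rule, and every member could be named. Genes shown beyond this (Eif3e, Eif3f, Eif3h, Eif3l, Eif3g, Eif1, Eif1a, Eif1ax, Eif1b, Eif2s1, Eif5b and Eif2b3 in some comparisons) were added after their values were seen. From other lists the genes with the smallest adjusted p were named. Alternatives were pseudocount 1, a minimum mean of 5 RPKM, other scalings, each library left out, a replicate block, the groups of a comparison alone, voom, subtraction of day 5 signal from day 0 RPF, and, chosen after seeing the data, a crossed block and a minimum of 20 reads. Python 3.11.15, numpy 2.4.6, pandas 2.3.3 and matplotlib 3.10.9 were used.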

Additional observations from a re-analysis of the deposited data

Results flagged for a closer look

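The day 5 change differed between brown and white cells by a direct test for several factors. Given as the brown change minus the white change on the log2 scale, the values in RPF were 2.00 for Eif2s3x, 1.90 for Eif3g and 1.76 for Eif1b. In RNA they were 1.28 for Eif5b, 1.21 for Eif2s2 and 1.2 for Eif3a. In Eff they were -2.02 for Eif4a2, 1.8 for Eif3g and 1.69 for Eif1b. These are the 3 largest differences in each measure, out of 18 factors in RPF, 19 in RNA and 11 in Eff that passed the test. RPF of brown preadipocytes rested on 9 and 12 reads for Eif2s3x, 34 and 22 for Eif3g, 7 and 4 for Eif1b and 56 and 68 for Eif4a2, and the part of this depth in the differences was not tested.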

How the results depend on the processing

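Of 321 called changes of single factors, all 321 kept direction and call with a pseudocount of 1 and with a minimum mean of 5 RPKM, and 296 when only the groups of the comparison were fitted. Under the median of ratios 260 did, and under quantile scaling 253. The changes that reversed were Eif5a and Eif4a1 in brown RPF (-0.26 and -0.27, quantile), Eef1a1 in tissue RPF (-0.36, quantile), Eif3b in white RNA (0.00, median of ratios), Eif4b in tissue RNA (0.02, median of ratios) and Eif1 in tissue RNA (-0.16, quantile). The cause was not tested.

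Counts of called factors moved by over 1.5 times as follows. For RPF at day 5, brown against white (6 calls), quantile scaling gave 2, the groups alone 10 and voom 14. For RPF of the tissues (12), the minimum of 20 reads, which tests 31 factors, gave 7. For RNA of preadipocytes (0), the groups alone gave 2, and for RNA of the tissues (17) quantile scaling gave 27. For Eff, the difference of the day 5 changes (11) had 5 with the replicate block, the day 5 lineages (9) had 3 with quantile scaling, 0 with the block and 14 with voom, and the tissues (3) had 5 with quantile scaling, 1 with the block, 1 with the groups alone and 5 with voom.

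With each library left out in turn, RPF calls ranged from 22 to 28 in brown and 23 to 25 in white cells, 14 to 22 for their difference, 0 to 5 at day 5, 16 to 22 at day 0 and 5 to 7 in tissues. RNA calls ranged from 24 to 28, 30 to 31, 11 to 15, 17 to 22, 0 to 0 and 14 to 29 in the same order, and Eff calls from 13 to 22, 14 to 20, 8 to 15, 1 to 8, 14 to 21 and 1 to 3.

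Libraries of a group share only a number: of 66 pairs of groups, 6 had same-numbered libraries that deviated together by a correlation over 0.1 (range -0.33 to 0.36). All 6 joined RNA groups. Other RNA groups deviated oppositely, such as brown day 5 and BAT (-0.333) and white day 0 and eWAT (-0.323). The sign depends on how the libraries were numbered, so shared deviation was common among RNA groups. No pair with an RPF group went beyond 0.079. The replicate block kept 285 of the 321 calls, with 14 Eff calls in each of brown and white cells and 16 between preadipocytes. A block with crossed numbers, added after seeing the data, gave 36 calls in white RNA and 0 in RNA of preadipocytes. Subtracting day 5 signal, estimated at 4.07% (9 genes) in brown and 8.16% (20 genes) in white day 0 RPF from genes whose RNA rose over 64-fold, left 155 of 164 calls.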
